A study of Mus musculus with 6 samples.

Results

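The proteasome is described here through the transcripts of its subunits and assembly factors in haematopoietic stem cells of the long-term class (LT-HSCs), the rare marrow cells that sustain blood formation. Members were the genes whose symbol begins with Psm, a letter from a to g and a digit, together with Pomp and Adrm1, leaving out the inducible core subunits Psmb8, Psmb9 and Psmb10. Where a gene had several probe sets, its brightest one over the 6 arrays was used. The rule found 47 of the 18193 genes that had a probe set of their own. Adrm1, a ubiquitin receptor, and Psme2, the partner of Psme1, had no probe set that carries their symbol alone and are not among the members. Of the 47, Psmc3ip and Psme3ip1 match by name only: they are named as interaction partners of Psmc3 and Psme3, and neither is a subunit. All 47 were tested, with no filter on level.

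The cells came from the marrow of mice of mixed background, aged 8 weeks, and had been sorted as Lin-Sca1+CD150+CD48-. The double knockout (dKO) mice carried MxCre with floxed alleles of both c-myc (gene symbol Myc) and N-myc (gene symbol Mycn), and controls had both floxed alleles but not MxCre. The Mx promoter that drives this Cre responds to interferon, so that deletion is induced by pI-pC, a double-stranded RNA, and is not limited to stem cells. All mice of both groups received 2 daily doses of pI-pC and were analysed 3 days after the last. There were 3 arrays per group, each of RNA pooled from 3 dKO or 2 control mice, amplified over 2 rounds before labelling, so p-values measure the spread between pools. One control sample is labelled with another letter in place of the N of N-myc; its title and source place it with the controls.

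The proteasome is the large protease that degrades proteins tagged with ubiquitin. Its core particle is a barrel of stacked rings, in which outer rings of alpha subunits form the gate and inner rings of beta subunits hold the active sites. A regulatory particle docks on the gate: its base contains a ring of ATPases that unfold the substrate, and its lid removes the ubiquitin chain. Other caps, the activators, open the gate without ubiquitin, and dedicated chaperones build the particle. In mammalian cells the transcription factor Nfe2l1 raises the subunit genes together when proteasome capacity is short, and blood stem cells are known for a low rate of protein synthesis.

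Promoter sequences of 5 genes that rose are shown because they belong to different parts of the particle: the core (Psmb5, Psma1), the ATPase ring (Psmc4), the base scaffold (Psmd2) and the assembly of the core (Pomp). Each is the 250 bases before the gene's start in RefSeq (GRCm38.p6), 5′ to 3′ on the strand of the gene, and capitals mark matches to the motifs searched.
Psmb5, chr14:54617996-54618245, minus strand: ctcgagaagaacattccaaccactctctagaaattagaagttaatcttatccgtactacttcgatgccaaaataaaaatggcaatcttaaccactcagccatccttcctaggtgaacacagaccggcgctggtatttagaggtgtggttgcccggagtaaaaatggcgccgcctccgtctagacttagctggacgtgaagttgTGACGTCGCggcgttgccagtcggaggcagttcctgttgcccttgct
Psma1, chr7:114276117-114276366, minus strand: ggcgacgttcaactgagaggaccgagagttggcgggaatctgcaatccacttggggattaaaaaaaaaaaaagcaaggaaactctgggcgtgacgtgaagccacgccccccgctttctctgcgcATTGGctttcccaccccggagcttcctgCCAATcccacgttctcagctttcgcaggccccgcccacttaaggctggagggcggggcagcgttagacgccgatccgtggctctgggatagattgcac
Psmc4, chr7:28050093-28050342, minus strand: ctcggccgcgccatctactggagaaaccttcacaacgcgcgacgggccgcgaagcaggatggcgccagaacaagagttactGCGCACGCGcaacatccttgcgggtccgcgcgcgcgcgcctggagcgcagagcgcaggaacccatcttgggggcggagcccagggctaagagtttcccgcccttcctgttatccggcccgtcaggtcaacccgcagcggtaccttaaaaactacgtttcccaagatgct
Psmd2, chr16:20651402-20651651, plus strand: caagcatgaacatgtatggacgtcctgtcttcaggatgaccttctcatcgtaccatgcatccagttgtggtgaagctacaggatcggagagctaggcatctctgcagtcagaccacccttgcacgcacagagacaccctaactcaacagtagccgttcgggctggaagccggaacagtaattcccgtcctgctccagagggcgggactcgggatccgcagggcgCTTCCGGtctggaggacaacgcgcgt
Pomp, chr5:147860378-147860627, plus strand: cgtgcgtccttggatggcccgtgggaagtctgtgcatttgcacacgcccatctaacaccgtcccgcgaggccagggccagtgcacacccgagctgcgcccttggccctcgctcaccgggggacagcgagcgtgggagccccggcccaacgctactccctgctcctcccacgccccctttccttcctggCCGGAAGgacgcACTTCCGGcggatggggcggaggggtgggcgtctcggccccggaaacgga
The capitals in Psmb5 are a match to TGACNNNGC, the core of the antioxidant response element bound by Nfe2l1 and Nfe2l2 with small Maf proteins. Those in Psma1 are matches to CCAAT, 1 of them on the other strand. Those in Psmc4 are GCGCANGCG, the core motif of the factor NRF1 (a different protein from Nfe2l1), with CACGCG inside it. Those in Psmd2 are CCGGAAG, the core bound by ETS factors, on the other strand. Pomp holds this core on the strand of the gene and, further along, ACTTCCGG, a longer form that contains the core on the other strand.

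The search covered 12 motifs on both strands in windows of 300 bases, from 250 before to 50 after the start. They were the antioxidant response core TGACNNNGC, the Maf recognition core GCTGAGTCA, the E-box CACGTG, its variant form CACGCG, the ETS core CCGGAAG, its longer form ACTTCCGG on the other strand, the interferon response core GAAANNGAA, the CCAAT box, the TATA box as TATAAA, the NRF1 core GCGCANGCG, the YY1 core AAGATGGCG and the GC box GGGGCGGGG. The longer ETS form contains the shorter, and the NRF1 core can contain the E-box variant. RefSeq windows were found for 39 of the 47 members, 42 windows in all. The ETS core CCGGAAG was in 18 of the 42 (42.86%), against 8.86% of all 32851 windows and 11.56% of those of protein-coding genes. Such a window belonged to 17 of the 39 genes, and among the 7 that rose, Pomp, Psmd2, Psmd13 and Psmc3ip had one while Psmb5, Psma1 and Psmc4 did not. GCGCANGCG was in 7 of the 42 (16.67%, against 6.25% of all windows and 8.58% of those of protein-coding genes). The E-box, which Myc proteins bind, was in 4 (9.52%, against 7.15% of all windows), and its variant CACGCG in 8 (19.05%, against 9.27% of all windows and 12.13% of those of protein-coding genes). TGACNNNGC was in 6 (14.29%, against 12.39% of all windows), among them Psmb5 and Psmb6. The interferon response core GAAANNGAA was in 8 (19.05%, against 8.56% of all windows). These belonged to Pomp, Psmb3, Psmb4, Psmc2, Psmd4, Psmd9, Psmg4 and Psme1, the last an activator that interferon induces. The longer ETS form was in 11 (26.19%, against 3.89% of all windows) and the YY1 core in 2 (4.76%, against 1.4%). Other motifs were no commoner, or rarer, than in windows of protein-coding genes. The CCAAT box was in 15 (35.71%, against 38.19% of those) and the TATA box in 4 (9.52%, against 12.6%). The GC box was in 5 (11.9%, against 15.35%) and the Maf core in 0 (against 0.41%). Member windows had a median G+C content of 59%, against 56.3% for protein-coding genes and 52.7% for all windows. Such matches describe the letters in these windows, not binding.

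The deleted genes were read first as a check of the labels. Myc was at 7.28, 7.77 and 7.24 (log2 values) in the dKO arrays, against 10.40, 10.57 and 10.12 in the control arrays. The Mycn probe set 1417155_at was at 3.40, 3.81 and 3.17 in the dKO arrays, against 10.80, 10.87 and 10.76 in the control arrays. Of the other 2 Mycn probe sets, 1425922_a_at differed (dKO minus control) by -1.61 and the dim 1425923_at by -0.08. Array medians ranged from 5.90 to 5.97, and the number of arrays limits the precision. Of 8 genes on the stem cell list, Slamf1 (CD150) and Mecom were close between groups. They averaged 9.24 and 11.08 in dKO and 9.16 and 11.12 in control arrays. Kit (-0.87) and Hlf (-1.66) fell on the log2 scale. Cd48, whose protein the sort selects against, rose by 1.16. Procr (-0.36), Cd34 (-0.14) and Ptprc (0.25) did not pass limma's test. Of 8 megakaryocyte markers, Ppbp (by 5.67), Pf4 and Itga2b rose and Vwf fell, the mean of Gp6 was below the highest negative control value of 3.92 in both groups, and their summed level was 12.81 to 13.49 in dKO and 11.66 to 11.89 in control arrays (log2). None of 10 granulocyte, 7 T and NK cell, 7 B cell or 7 macrophage markers passed limma's test. The granulocyte markers Lcn2 and Mmp8, Ncr1 of the T and NK cell list and the B cell marker Ms4a1 averaged below the highest negative control value in both groups. Some of the markers varied widely between pools. Mpo differed by -2.35 (SD 1.96 in dKO, 1.27 in control arrays) and Ccr2 by 1.95 (SD 0.90 and 1.06). Of the granulocyte markers 8 were lower in dKO and 2 higher. Their summed level was 8.56 to 10.25 in dKO and 9.84 to 11.36 in control arrays (log2). Of 6 erythroid markers 1 fell, Klf1, and the mean of Hba-a1 was below the highest negative control value in both groups. RNA integrity, read as how far the 3′ Gapdh control exceeded the 5′ control (log2), was 2.39 to 2.47 in dKO and 2.12 to 2.36 in control arrays, without overlap. The part of these shifts in the results that follow was not tested. In RNA from pools of cells, fewer cells of a type and less RNA per cell cannot be told apart.

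**Figure D1:**
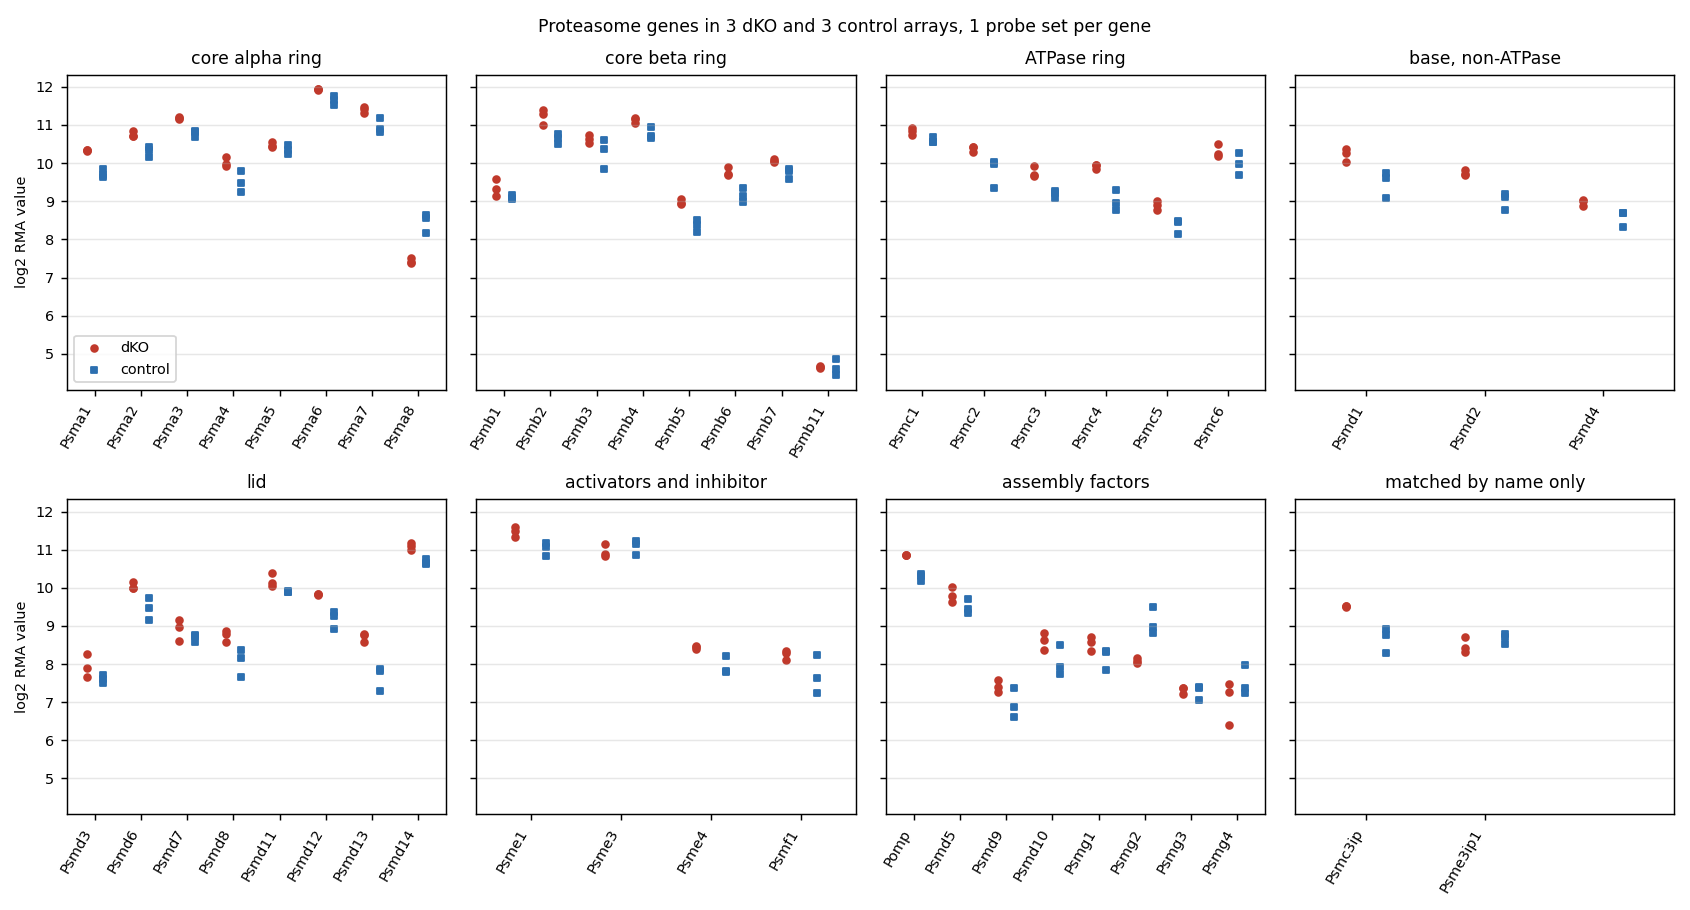
Log2 RMA values (vertical axis) of the 47 genes in the 3 dKO arrays (red circles, left) and the 3 control arrays (blue squares, right), in panels by place in the particle. For 30 genes every dKO point is above every control point, and for Psma8 and Psmg2 every dKO point is below.

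Most proteasome genes were somewhat higher in dKO cells, all but Psmd13 by less than 2-fold, and few passed the test singly. The log2 difference, dKO minus control, was positive for 42 of the 47 genes, with a median of 0.43, against a median of 0.01 over all 18193 genes. By limma's test, with p adjusted over all 45037 probe sets, 7 of the 47 rose (14.9%), where 4.49% of all genes did, and 2 fell (4.26%), where 3.56% of all genes did; in either direction 8.05% of all genes passed. The genes that rose were Psmd13, Psmc4, Psmc3ip, Psmd2, Psmb5, Psma1 and Pomp, and those that fell were Psma8 and Psmg2. The other 38 did not pass. The values of the groups did not overlap, with dKO above, for 30 members (63.8%), where this held for 15.8% of all genes; with dKO below it held for 2 (4.26%), against 14.2% of all genes (30% in either direction).

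Proteasome genes give bright signals, and bright genes are called more often on this array. Among the 5549 genes at least as bright as Psmd3, the dimmest of the widely expressed core, ATPase and lid subunits, 9.68% rose, 5.97% fell, and dKO lay wholly above control for 29.8% and wholly below for 20.9%. The median log2 difference of those genes was 0.06. At an unadjusted p of 0.05, 27 of the 47 members were higher and 2 lower, against 2232 and 1964 of all 18193 genes.

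**Figure D2:**
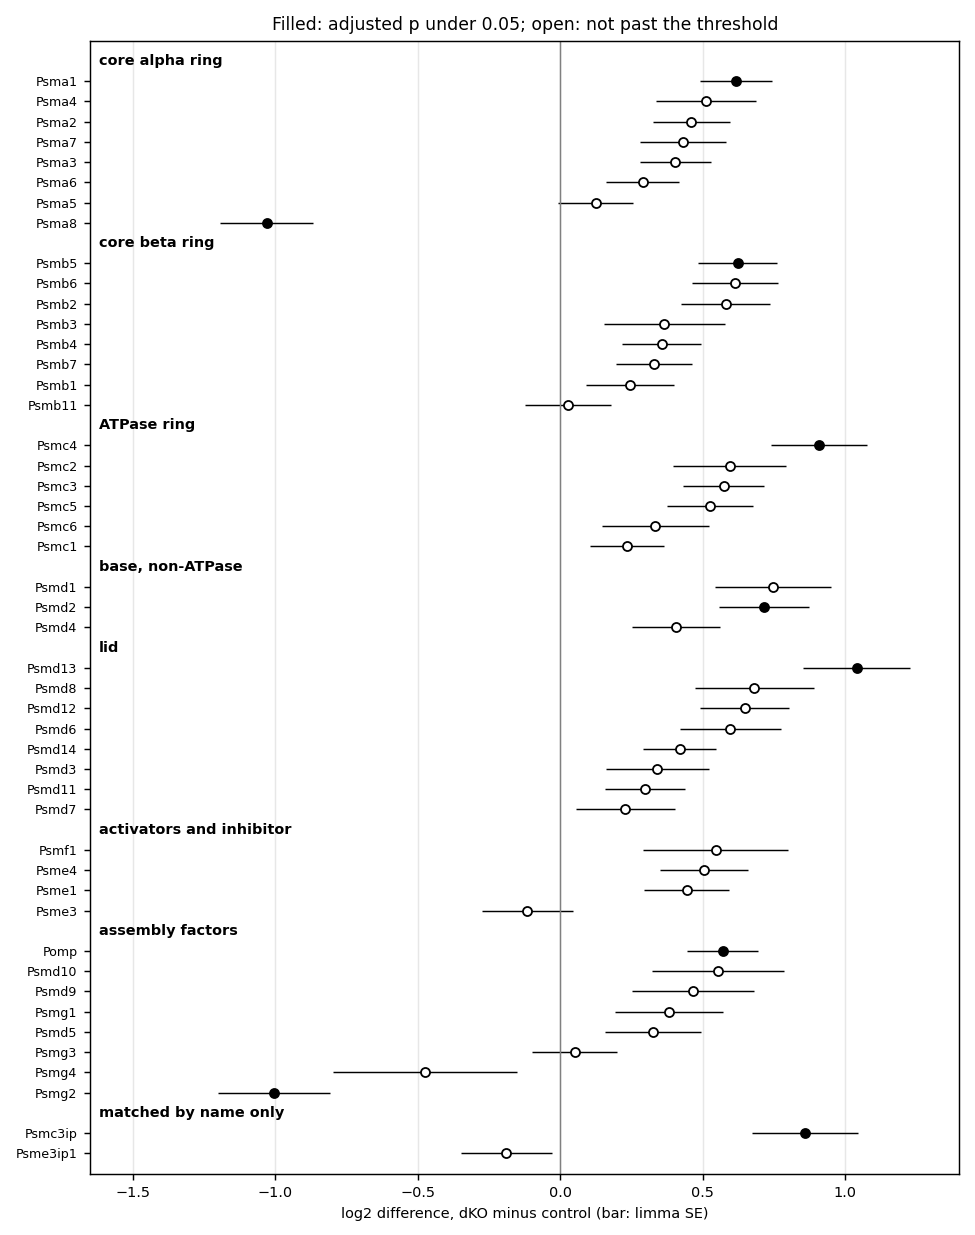
Log2 difference between dKO and control (horizontal axis) of each gene, grouped by place in the particle and ordered by size. Circles are limma estimates, bars 1 SE to each side, and filled circles passed an adjusted p of 0.05: 7 to the right of zero and 2 to the left.

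In the core particle, 2 of 16 genes rose (12.5%) and 1 fell (6.25%), with a median log2 difference of 0.38. Among the genes at least as bright as Psmd3, 9.68% rose and 5.97% fell. These shares also stand beside the counts in the classes of members below, each with at most 1 call per direction. Psmb5, the beta subunit with the chymotrypsin-like active site and the main target of proteasome inhibitor drugs, read 9.05, 8.96 and 8.92 in the dKO arrays, against 8.50, 8.39 and 8.18 in the control arrays. All dKO values were above all control values, and the difference was 0.62 ± 0.14 (SE, log2; 1.54-fold; limma adjusted p = 0.044). Psmb6, the caspase-like active-site subunit, read 9.90, 9.68 and 9.72 in the dKO arrays, against 9.15, 9.34 and 8.98 in the control arrays. Its groups did not overlap either, with a difference of 0.61 ± 0.15 (limma adjusted p = 0.0593), just short of the threshold. The trypsin-like subunit Psmb7 differed by 0.33 ± 0.13 (limma adjusted p = 0.206).

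Among the structural beta subunits, Psmb2 averaged 11.22 ± 0.19 in dKO and 10.64 ± 0.14 in control arrays (SD, n = 3 each) and differed by 0.58 ± 0.16 (SE, log2; limma adjusted p = 0.0766). Psmb1, Psmb3 and Psmb4 had differences of 0.24, 0.37 and 0.36 and did not pass. A second Psmb3 probe set, 1417052_at, was higher past the threshold, by 0.74 (limma adjusted p = 0.0259). Psmb11, the beta subunit of the thymic proteasome, averaged 4.66 ± 0.02 in dKO and 4.63 ± 0.21 in control arrays (SD, n = 3 each), not far above the highest negative control value of 3.92, and its groups overlapped.

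In the alpha ring, Psma1 read 10.32, 10.33 and 10.35 in the dKO arrays, against 9.68, 9.83 and 9.63 in the control arrays. The dKO arrays were almost alike and all higher, with a difference of 0.62 ± 0.13 (SE, log2; 1.53-fold; limma adjusted p = 0.0329). Psma2 through Psma7, which complete the gate, had differences between 0.12 (Psma5) and 0.51 (Psma4), and none passed. Of these, all but Psma5 had dKO values wholly above control values. Psma2 was 10.76 ± 0.08 in dKO and 10.31 ± 0.13 in control arrays (SD, n = 3 each; limma adjusted p = 0.0988).

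Psma8 went the other way. This alpha subunit takes the place of Psma7 in the proteasome of testis. It read 7.37, 7.51 and 7.41 in the dKO arrays, against 8.65, 8.18 and 8.56 in the control arrays, a difference of -1.03 ± 0.16 (SE, log2; 2.04-fold lower in dKO; limma adjusted p = 0.0147). Every dKO array was lower than every control array. Psma7 itself differed by 0.43 ± 0.15 (limma adjusted p = 0.153). Psma8 has 1 probe set.

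All 6 ATPases had positive differences, with a median of 0.55, and 1 rose. Psmc4 read 9.95, 9.95 and 9.85 in the dKO arrays, against 8.76, 9.31 and 8.95 in the control arrays. No control array reached the dKO values, and the difference was 0.91 ± 0.17 (SE, log2; 1.88-fold; limma adjusted p = 0.0243). Its second probe set, 1416291_at, was higher by 0.92 (limma adjusted p = 0.0112). Psmc3 averaged 9.76 ± 0.15 in dKO and 9.19 ± 0.10 in control arrays (SD, n = 3 each), a difference of 0.57 ± 0.14 (limma adjusted p = 0.0596), and Psmc5 differed by 0.53 ± 0.15 (limma adjusted p = 0.0907).

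Psmc2, Psmc6 and Psmc1 had differences of 0.59, 0.33 and 0.23, and did not pass by the probe set used, which for Psmc2 has the suffix _x_at, given to probes that can also match other transcripts. For Psmc2 the dimmer probe set 1426611_at did pass, with 0.88 (limma adjusted p = 0.0386). With the mean over all probe sets of a gene, 5 of the 6 ATPases rose, while Psma1, Psmd2 and Psmd13 lost their calls. That fit adjusts p over 18193 genes, of which 1101 rose, where the main fit covers 45037 probe sets. Psmc3 and Psmc5 have 1 probe set each, so their values were unchanged and only the fit differed.

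The base holds, besides the ATPases, the large scaffold subunits Psmd1 and Psmd2 and the ubiquitin receptor Psmd4. Psmd2 read 9.68, 9.83 and 9.72 in the dKO arrays, against 9.12, 9.20 and 8.77 in the control arrays. The dKO arrays were all higher, by 0.71 ± 0.16 on average (SE, log2; 1.64-fold; limma adjusted p = 0.041), or by 0.44 as a mean with its second, dim probe set (limma adjusted p = 0.0985). Psmd1 read 10.04, 10.27 and 10.37 in the dKO arrays, against 9.60, 9.75 and 9.10 in the control arrays. Its difference was similar, 0.75 ± 0.20, with a wider spread between control arrays (limma adjusted p = 0.0782). Psmd4 differed by 0.41 ± 0.15 (limma adjusted p = 0.185), and for each of the 3 genes dKO lay wholly above control. Thus 1 of 3 rose, with a median of 0.71.

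In the lid, 1 of 8 genes rose and all 8 differences were positive, with a median of 0.51. Psmd13, a structural lid subunit, had the largest rise among the members. It read 8.58, 8.75 and 8.78 in the dKO arrays, against 7.88, 7.82 and 7.30 in the control arrays, a difference of 1.04 ± 0.19 (SE, log2; 2.06-fold; limma adjusted p = 0.0218). The groups were well apart, and the control in replicate 3 was the lowest. Probe set 1437220_x_at of the same gene was higher by 0.90 (limma adjusted p = 0.0186). The other 2, 1445729_at and the very dim 1447843_at, read -0.20 and -0.26 and did not pass. In mean level 1445729_at (7.83) was close to 1437220_x_at (7.86), which has the suffix of probes that can also match other transcripts. The direction of Psmd13 thus differed between its probe sets. Averaged over its 4 probe sets, Psmd13 differed by 0.37 (limma adjusted p = 0.135).

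Psmd12, also structural, averaged 9.82 ± 0.01 in dKO and 9.18 ± 0.24 in control arrays (SD, n = 3 each) and differed by 0.65 ± 0.16 (limma adjusted p = 0.0551). Psmd6 differed by 0.60 ± 0.18 (limma adjusted p = 0.0991) and Psmd8 by 0.68 ± 0.21 (limma adjusted p = 0.11). Psmd14, the metalloprotease that cuts the ubiquitin chain from the substrate, read 11.00, 11.10 and 11.17 in the dKO arrays, against 10.64, 10.75 and 10.62 in the control arrays. Its groups did not overlap, but the difference of 0.42 ± 0.13 did not pass (limma adjusted p = 0.107). The remaining lid subunits Psmd3, Psmd7 and Psmd11 had differences of 0.34, 0.23 and 0.30 and did not pass.

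None of the 4 activator and inhibitor genes passed limma's test, and their median difference was 0.47. At an unadjusted p of 0.05, 2 were higher, against 2232 of all 18193 genes. Psme4, the large single-chain nuclear activator, read 8.44, 8.41 and 8.48 in the dKO arrays, against 7.79, 8.20 and 7.83 in the control arrays. The groups did not overlap, with a difference of 0.50 ± 0.15 (SE, log2; limma adjusted p = 0.109). Psme1, a chain of the interferon-inducible activator that caps the core in antigen processing, differed by 0.44 ± 0.15 (limma adjusted p = 0.135), again without overlap. Psmf1, which inhibits the core in purified systems, differed by 0.54 ± 0.25 with overlapping groups (limma adjusted p = 0.272). Psme3, the nuclear activator related to Psme1, averaged 10.96 ± 0.16 in dKO and 11.07 ± 0.18 in control arrays (SD, n = 3 each), and its difference of -0.12 ± 0.16 did not pass. The other Psme4 probe sets, 5 in all, had differences between -0.22 and 0.18 and did not pass. A probe set that carries the symbols of both Psme2b and Psme2, 1417189_at, was higher without overlap, by 1.18 ± 0.19 (SE, log2; 2.26-fold; limma adjusted p = 0.0168), and cannot be assigned to either gene. The 2 other Psme3 probe sets had -0.07 and 0.03.

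The assembly factors were mixed: of 8, 1 rose and 1 fell, with a median of 0.35. Pomp, the maturation protein that is built into the nascent core and is its first substrate, read 10.85, 10.87 and 10.86 in the dKO arrays, against 10.32, 10.36 and 10.19 in the control arrays. Every dKO array was higher, and the difference was 0.57 ± 0.12 (SE, log2; 1.48-fold; limma adjusted p = 0.0405). Psmg2, which pairs with Psmg1 to guide the alpha ring, read 8.02, 8.08 and 8.17 in the dKO arrays, against 9.49, 8.82 and 8.98 in the control arrays. Every dKO array was lower, with a difference of -1.0 ± 0.20 (SE, log2; 2.01-fold lower in dKO; limma adjusted p = 0.0275). Its partner Psmg1 differed by 0.38 ± 0.19 in the other direction and did not pass (limma adjusted p = 0.307).

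The Psmg2 fall came from probe set 1444264_at. The other 2 probe sets, 1448212_at and 1425373_a_at, were lower by amounts that did not pass, at -0.17 (limma adjusted p = 0.692) and -0.57 (limma adjusted p = 0.0943). Psmg3 and Psmg4, the other alpha-ring chaperone pair, had differences of 0.05 and -0.47. The chaperones of the base Psmd5, Psmd9 and Psmd10 had 0.32, 0.47 and 0.55, the last with the smallest p (limma adjusted p = 0.225). None of these 5 passed. The dimmer Psmd9 probe sets 1447670_at and 1423387_at went the other way, by -0.20 and -0.38, and did not pass.

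**Figure D3:**
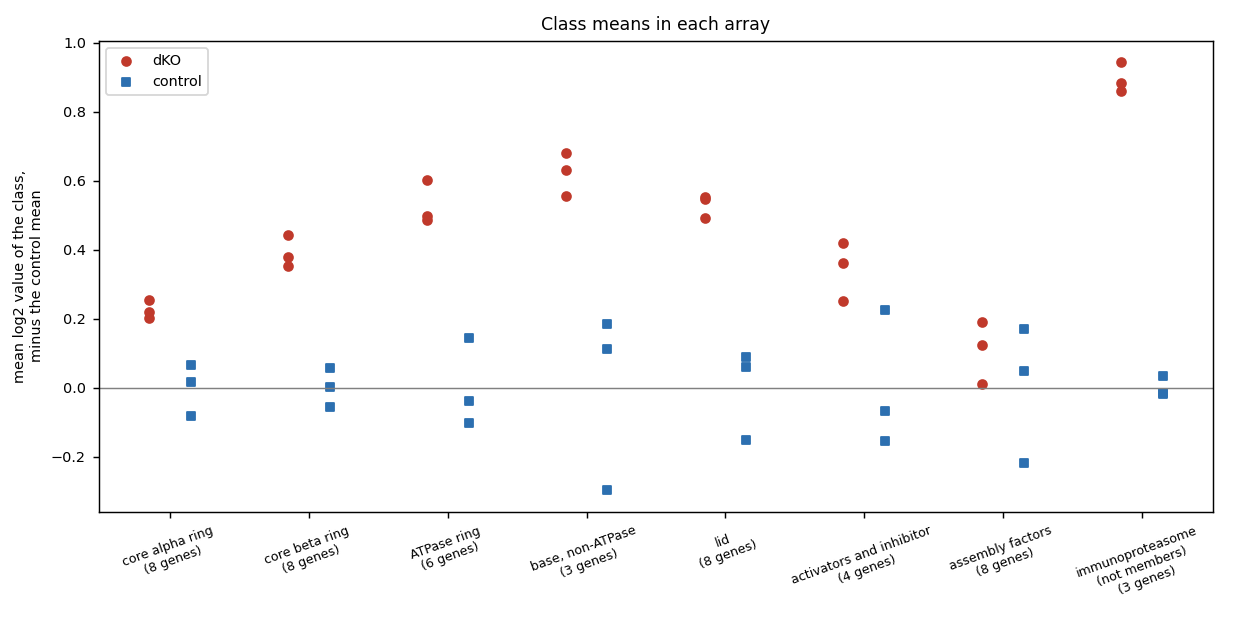
Mean log2 value of the genes of each class in each array (vertical axis, relative to the mean of the 3 control arrays), with dKO arrays as red circles on the left and control arrays as blue squares on the right. The dKO points lie above the control points in every class except the assembly factors, where they overlap; the 3 immunoproteasome subunits, which are not members, are drawn for comparison.

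Averaged over its genes, each array kept this picture. The ATPase ring averaged 9.99, 10.09 and 9.97 in the dKO arrays, against 9.45, 9.63 and 9.38 in the control arrays. The lid averaged 9.39, 9.45 and 9.46 in the dKO arrays, against 8.96, 8.99 and 8.75 in the control arrays. In both the dKO arrays were all higher. The assembly factors averaged 8.37, 8.55 and 8.48 in the dKO arrays, against 8.53, 8.40 and 8.14 in the control arrays, with overlap.

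Of the 2 genes that match by name only, Psmc3ip, a partner of the recombinases of meiosis, read 9.49, 9.52 and 9.53 in the dKO arrays, against 8.93, 8.76 and 8.28 in the control arrays. It was higher in every dKO array, by 0.86 ± 0.19 (SE, log2; 1.81-fold; limma adjusted p = 0.0396). Psme3ip1 differed by -0.19 ± 0.16 and did not pass. Without this pair, 6 of 45 genes rose and 2 fell.

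The calls sit close to the threshold and rest on the full set of arrays. With 1 array left out, Pomp, Psma1, Psmd2 and Psmb5 lost their calls in all 6 settings (adjusted p from 0.066 to 0.127). Psmc4 kept its call only without control replicate 2, Psmc3ip only without control replicate 1, Psmd13 only without control replicate 1 or 3, Psmg2 only without control replicate 1 or 2, and Psma8 only without dKO replicate 2 or control replicate 1 or 2. Signs held, while sizes moved: the Psmb5 difference was 0.53 to 0.69, that of Psmd13 0.86 to 1.14 and that of Psma8 -1.17 to -0.94. Psmc3ip ran from 0.67 to 0.995 and Psmg2 from -1.14 to -0.81.

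**Figure D4:**
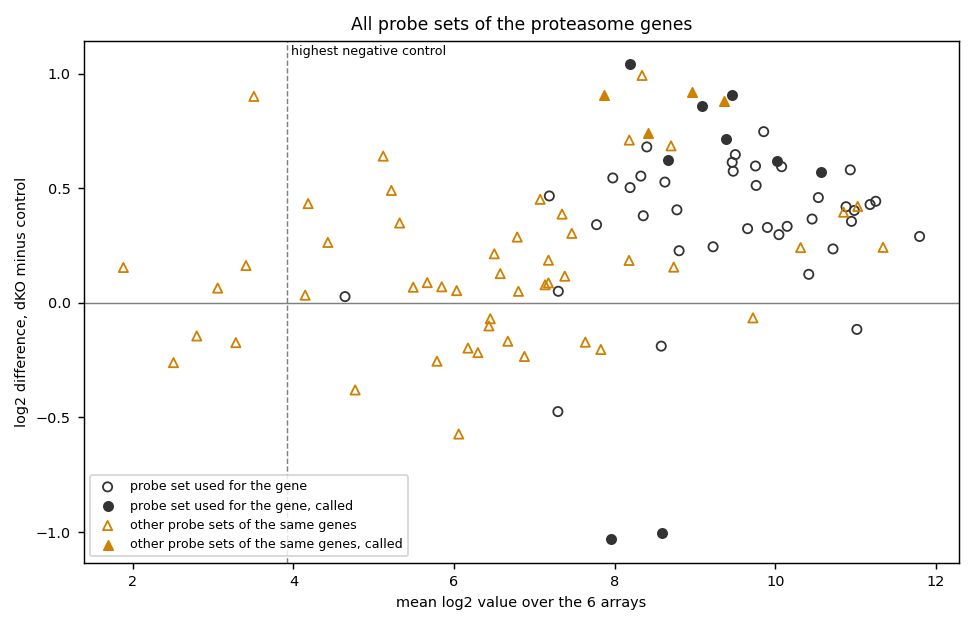
Log2 difference between dKO and control (vertical axis) against the mean log2 value over the 6 arrays (horizontal axis) for all 100 probe sets of the members, with the probe set used for each gene as circles and the others as triangles, filled where past the threshold. The 4 filled triangles, of Psmb3, Psmc2, Psmc4 and Psmd13, lie above zero, and the dashed line marks the highest negative control value, 3.92.

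Of the 47 genes, 26 had more than 1 probe set, 53 further probe sets in all. Of these 53, 38 had a positive difference, 4 were higher past the threshold and 0 lower by limma's test. Of all 45037 probe sets tested, 6.99% passed, 3.57% higher and 3.41% lower. The plot of all probe sets shows that the differences of dim probe sets lie on both sides of zero. For no member did 2 probe sets pass in opposite directions.

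The 3 inducible core subunits, which replace the constitutive ones in immune cells and under interferon, all rose. By limma's test 4.49% of all genes rose, and 9.68% of those at least as bright as Psmd3. Psmb9 read 12.04, 11.94 and 11.91 in the dKO arrays, against 11.05, 10.97 and 10.99 in the control arrays, a difference of 0.96 ± 0.12 (SE, log2; limma adjusted p = 0.00775), and Psmb8 and Psmb10 differed by 0.90 ± 0.16 and 0.83 ± 0.15 (limma adjusted p = 0.0197 and 0.0218). These differences exceeded those of their constitutive counterparts in the core, Psmb6 at 0.61, Psmb5 at 0.62 and Psmb7 at 0.33, but the excess itself was not tested. With 1 array left out, Psmb9 kept its call in all 6 settings, Psmb8 only without dKO replicate 1 or control replicate 1, and Psmb10 only without control replicate 3.

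Genes that regulate proteasome genes were also read. All 8 of the list were measured: 2 rose and 0 fell by limma's test, where 4.49% of all genes rose and 3.56% fell. The counts were the same at an unadjusted p of 0.05, against 2232 and 1964 of all 18193 genes, and the median was 0.28. Ngly1, the glycanase whose action on Nfe2l1 is needed for its activity, read 9.36, 9.35 and 9.40 in the dKO arrays, against 8.57, 8.63 and 8.38 in the control arrays. It was higher in every dKO array, by 0.84 ± 0.13 (SE, log2; 1.79-fold; limma adjusted p = 0.014), and lost its call without dKO replicate 1 or 3. Maff, a small Maf partner of these factors, read 8.44, 7.77 and 8.59 in the dKO arrays, against 6.57, 6.97 and 6.87 in the control arrays. It was higher by 1.46 ± 0.24 (2.75-fold; limma adjusted p = 0.0162) and lost its call without dKO replicate 1 or 3 or control replicate 1. Nfe2l1 and Nfe2l2 themselves differed by 0.18 ± 0.15 and 0.25 ± 0.23 and did not pass. The other small Maf genes of the list, Mafg and Mafk, differed by 0.30 ± 0.15 and 0.11 ± 0.19 and did not pass. Keap1 and Bach1 differed by 0.31 ± 0.19 and -0.003 ± 0.16 and did not pass either.

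Factors that bind the proteasome or deliver substrates to it were read as well. Of 10 proteasome-bound factors measured (of 14 listed), 0 passed limma's test, and the median was 0.26. At an unadjusted p of 0.05, 5 were higher and 0 lower, against 2232 and 1964 of all 18193 genes. The smallest p values were those of Zfand5 (0.46 ± 0.14; limma adjusted p = 0.102), which stimulates the proteasome in mouse cells, and Txnl1 (0.39 ± 0.14; limma adjusted p = 0.156). Sem1, a lid subunit whose symbol the rule does not match, differed by 0.37 ± 0.15 (limma adjusted p = 0.224). Of 11 ubiquitin shuttles and parts of the Vcp segregase measured (of 14 listed), 0 passed limma's test, with 3 higher and 1 lower at an unadjusted p of 0.05 and a median of 0.06. Nploc4, a cofactor of Vcp, had 0.57 ± 0.14 (limma adjusted p = 0.0554) and the shuttle Ubqln4 -0.72 ± 0.19 (limma adjusted p = 0.0676). Uba6, a ubiquitin-activating enzyme and the only measured gene of a list of 6, differed by 0.09 ± 0.21.

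Genes commonly used as Myc targets were set beside the proteasome. Of 8, the nucleolar genes Dkc1 and Nop56 fell, with differences of -1.04 ± 0.14 and -0.77 ± 0.12 (SE, log2, dKO minus control; limma adjusted p = 0.00847 and 0.0156), and lactate dehydrogenase Ldha rose by 0.53 ± 0.12 (limma adjusted p = 0.0473). At an unadjusted p of 0.05, 6 were lower and 1 higher, against 1964 and 2232 of all 18193 genes. The median was -0.61, against 0.43 for the proteasome genes. Dkc1 kept its call with any 1 array left out, Nop56 lost it without dKO replicate 1 or 3 or control replicate 2, and Ldha lost it in all 6 settings.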

How the data were processed

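The authors deposited 1 table of expression values made with RMA (named, without a version, per the submitters' processing notes). Their log2 scale was inferred from the range of the deposited values, 1.49 to 13.85. As usually run, RMA scales arrays to each other and compresses changes of dim probe sets, so a shift in total RNA cannot be seen. Scan dates are not used here. Groups came from sample titles, and every value column mapped to a sample.

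GEO's platform annotation supplied the gene names: of 45037 non-control probe sets, 34945 had 1 symbol, 932 several and 9160 none. Each was fitted with limma (3.58.1, R 4.3.3; lmFit, eBayes, defaults; 4 residual and 3.19 prior degrees of freedom), dKO minus control, with Benjamini-Hochberg adjustment over all and a threshold of 0.05. The script was tested on simulated data. Replicate numbers were not used to pair the samples in the main fit. Over all probe sets, deviations from the group means of equal replicate numbers correlated at -0.02, 0.00 and 0.01. This does not settle whether equal numbers share a day or litter.

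Negative controls were the 3 TrpnX probe sets. Members and lists were chosen with earlier results of these data known, and motifs after seeing the calls (4 were shortened after a first search). Genes named were all members past the threshold, the 3 of each class with the smallest p, Psmb5, and from the other lists those past the threshold and the 2 with the smallest p; further values complete a class. Alternatives were other scalings, a filter, other priors and weights, other probe sets, a replicate block and leaving out each array.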

Additional observations from a re-analysis of the deposited data

How the results depend on the processing

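The median log2 differences of all members and of each class stayed positive; that of all members ran from 0.35 to 0.49 over the 15 alternatives, while counts of calls moved widely. The 7 rises (817 of 18193 genes in all) became 4 after quantile normalization (core 1, base scaffold 0, assembly 0; all genes 774), 13 with the filter on level (core 4, ATPases 3, base scaffold 2, lid 2; all genes 1085 of 10356), 19 with a trended robust prior (core 8, ATPases 2, base scaffold 2, lid 4, activators 1; all genes 1102) and 12 with the mean over probe sets (ATPases 5; all genes 1101), where Psma1, Psmd2 and Psmd13 lost their calls. Arrays centred on their medians gave 2 ATPases and 2 lid genes, the probe set with the largest SD 2 ATPases, and only unsuffixed probe sets 2 ATPases and 0 lid genes. With the replicate block 0 members rose and 0 fell by limma's test, while 422 of all genes rose and 322 fell. The count was 0 in the core, the ATPases, the base scaffold, the lid and the assembly factors alike. At an unadjusted p of 0.05, 25 members were higher and 2 lower. Sizes equal those of the main fit by construction, and the block leaves fewer degrees of freedom. Whether equal replicate numbers share a day or litter is not known.

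With 1 array left out, 0 to 2 members rose and 0 to 2 fell (21 to 28 higher and 2 lower at an unadjusted p of 0.05), against 373 to 471 and 267 to 346 of all genes, with 817 and 647 from the 6 arrays. Rises numbered from 0 to 1 among ATPases and lid genes, 0 in the core, base scaffold and assembly factors, and 0 to 1 fell in the core and in assembly. The fits have fewer arrays by construction. The core median was 0.30 after quantile normalization, 0.45 with centring and 0.35 to 0.44 in leave-outs. With the mean over probe sets the medians were 0.44 for the base scaffold, 0.39 for the lid, 0.21 for activators and 0.19 for assembly; with the largest SD 0.62 for the lid, 0.25 for activators and 0.20 for assembly; with unsuffixed probe sets 0.28 for the lid and 0.16 for activators. These causes were not tested. Psmd13 reversed to -0.20 (adjusted p = 0.718) with unsuffixed probe sets, where 1445729_at stands for it. The median of the shuttle list reversed to -0.019 after quantile normalization, and Uba6, alone in its list, to -0.12 without control replicate 3, within a range up to 0.24 (without control replicate 2). Dim probe sets near the negative controls limit Psmb11.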

Other observations

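Proteasome genes varied less between dKO arrays than between control arrays. The median SD of the 47 genes was 0.0991 within dKO and 0.196 within control (log2), and 36 of 47 had the smaller SD in dKO. Over all 18193 genes the median SDs were 0.183 within dKO and 0.190 within control. The control array of replicate 3 had the lowest value of all 6 arrays for 30 of the 47 genes. Without it the median difference of the members was 0.35, and 1 of them rose by limma's test. The difference in spread was not tested. The counts of 36 and 30 genes were not made over all genes, so whether either is particular to proteasome genes is not known.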
